A study of Mus musculus with 6 samples.

Results

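The genes examined were the ligands and receptors of the tumor necrosis factor (TNF) superfamilies, taken as every column of the deposited gene table whose symbol starts with Tnfrsf or Tnfsf, leaving out symbols that end in -ps or os. The rule found 30 of 17831 genes, of which 19 were receptors and 11 were ligands, including Tnfsfm13, a readthrough transcript of Tnfsf12 and Tnfsf13. Tnfrsf17 and Tnfsf18 were not analysed here.

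Bulk RNAseq was measured in 6 libraries of lung group 2 innate lymphoid cells (ILC2s), 3 from wild-type (WT) mice given in the labels as CB57BL/6 and 3 from SIRPα KO mice given as SIRPalphatm1Ynliu/J. SIRPα is an inhibitory receptor that binds CD47, and the comparison asked which transcripts differ in ILC2s that lack it. Mice of both groups were 6 to 8 weeks old and sex-matched, and all received 0.5 μg of IL-33 intranasally on 3 days. ILC2s were sorted on day 4 as CD45+ lineage- CD127+ ST2+ cells and cultured with IL-2 and IL-7 for 18 h or 24 h, since the sources used here give both times. There was no unchallenged group, and the mutation is carried by every cell of the mouse. Whether WT mice were littermates, how many animals went into a library, and which exons of Sirpa the allele removes are not given in the sources used here. Each library was amplified from 10 pg of RNA. The labels do not say whether replicates came from separate animals or cultures, so p values measure only the spread between these libraries, which may be technical. WT replicates 1 and 2 carry the same code, 37, in the labels, with a suffix on the second, and SIRPα KO replicates 2 and 3 share the code 44. If a code marks a sample, each group has 2 samples.

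TNF superfamily ligands are mostly trimeric membrane proteins, many of which can be shed, and they cluster receptors with cysteine-rich extracellular domains. Receptors with a death domain recruit TRADD or FADD and can lead to NF-κB activation or caspase-dependent death, whereas the others bind TRAF adaptors directly, and decoy receptors bind ligand without signaling. In ILC2s, receptors of this family such as DR3 (Tnfrsf25) and GITR (Tnfrsf18) act as costimulatory inputs beside the alarmin cytokines, and ILC2s themselves can present OX40L (Tnfsf4) to T cells.

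Sirpa, the targeted gene, had 149, 96 and 73 reads in WT replicates 1 to 3 and 48, 85 and 28 reads in the SIRPα KO replicates. All SIRPα KO libraries were below the WT libraries after scaling, with a log2 fold change of -1.12 that did not pass the threshold used below (edgeR adjusted p = 0.115). Libraries held between 13980499 and 19051507 reads on genes, and replicates of WT varied more (biological coefficient of variation 38.0%) than those of SIRPα KO (15.2%). The 12 ILC2 markers were all detected and summed to between 13843 and 15141 reads scaled to library size (CPM) in WT and between 19860 and 20393 CPM in SIRPα KO, most of it from Il5. Without Il5 the sum was 4453 to 5430 CPM in WT and 7152 to 7271 CPM in SIRPα KO. Of the 12 markers, 2 were higher (Il5 and Il2ra) and 1 was lower (Thy1) in edgeR, where 5.94% of all genes were higher and 5.81% lower.

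Promoters of members that differed in edgeR are shown first, with that of Tnfrsf4, which lies beside Tnfrsf18. RefSeq's table of promoters (GRCm38.p6, the sequence of mm10) covers 250 bases before and 50 after a transcription start, and it matched 23 of the 30 members with 27 windows. Tnfsf4, which was also lower, had no window there, and that of Tnfrsf8, the neighbour of Tnfrsf1b, is not printed. The sequences below are the stretches before the start that hold no annotated exon, written 5′ to 3′, for Tnfrsf1b, Tnfrsf21 and Tnfsf8, which were higher in SIRPα KO, and for the adjacent pair Tnfrsf4 and Tnfrsf18, of which Tnfrsf18 was lower. Capitals mark a match to the STAT motif TTCNNNGAA, which is a palindrome, or to the AP-1 motif TGANTCA, on either strand.
Tnfrsf1b, chr4:145246871-145247120, minus strand: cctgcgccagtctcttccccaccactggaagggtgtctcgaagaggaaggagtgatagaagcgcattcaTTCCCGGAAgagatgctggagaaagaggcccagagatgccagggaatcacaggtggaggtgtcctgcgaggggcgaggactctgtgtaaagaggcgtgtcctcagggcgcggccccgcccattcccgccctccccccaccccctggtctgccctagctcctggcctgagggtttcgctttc
Tnfrsf21, chr17:43016305-43016554, plus strand: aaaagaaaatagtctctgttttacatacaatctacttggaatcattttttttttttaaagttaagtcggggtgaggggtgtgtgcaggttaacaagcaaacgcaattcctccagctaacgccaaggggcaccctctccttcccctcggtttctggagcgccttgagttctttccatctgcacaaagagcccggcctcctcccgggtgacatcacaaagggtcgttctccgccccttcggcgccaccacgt
Tnfsf8, chr4:63861348-63861534, minus strand: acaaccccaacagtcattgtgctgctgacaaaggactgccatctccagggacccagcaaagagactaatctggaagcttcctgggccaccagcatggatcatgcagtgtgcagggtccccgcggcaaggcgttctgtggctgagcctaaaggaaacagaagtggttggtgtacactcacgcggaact
Tnfrsf4, chr4:156013611-156013694, plus strand: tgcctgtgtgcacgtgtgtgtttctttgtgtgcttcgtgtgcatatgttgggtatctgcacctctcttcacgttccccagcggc
Tnfrsf18, chr4:156026072-156026163, plus strand: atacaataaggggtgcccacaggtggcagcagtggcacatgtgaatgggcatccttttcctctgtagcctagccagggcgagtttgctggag
Tnfrsf18 site, chr4:156026213-156026241, plus strand: tgctctacacTTCACAGAAggcctttaca

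Among these stretches a STAT match was found in that of Tnfrsf1b, where it overlaps an ETS match (CCGGAA). The last line shows the STAT match of Tnfrsf18, which begins 99 bases before the start given by RefSeq and lies outside the exon-free stretch. In GENCODE M21 the gene begins at chr4:156026164, so the match lies within it by that annotation. Of all 32851 windows in the table, 8.3% held the STAT motif and 7.81% the AP-1 motif, and of the 27 member windows 6 held the former and 6 the latter. The STAT motif was found in windows of Tnfrsf1a, Tnfrsf1b, Tnfrsf9, Tnfrsf18, Tnfrsf19 and Tnfrsf25, and the AP-1 motif in windows of Tnfrsf8, Tnfrsf9, Tnfsf13, Tnfsf13b and Tnfsf14. The overlapping windows of Tnfsf13b hold the same AP-1 match, which was counted in each. An NF-κB-like pattern, 3 G bases and 2 C bases with any 5 bases between, stood in 15 of the member windows and in 50.8% of all windows, the ETS pattern in 4 and in 14.9%, and the GATA pattern AGATAA in 1 and in 11.2%. All were searched on both strands, and the patterns were chosen after expression values were seen, and a match is a run of letters, not a measured binding site.

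Of the 30 members, 21 passed the filter on low counts and were tested, 15 receptors and 6 ligands. Tnfrsf1b, Tnfrsf21 and Tnfsf8 were higher in SIRPα KO and Tnfrsf18 and Tnfsf4 were lower, each with an adjusted p under 0.05 in the quasi-likelihood test of edgeR, with Benjamini-Hochberg adjustment over all 13623 genes tested. These 5 of 21 members make up 23.8%, where 11.7% of all genes tested passed the same threshold. The share of all genes was 5.94% for higher and 5.81% for lower. The log2 fold changes of the tested members ran from -1.10 to 1.10 with a median of 0.061, and the median of all genes was -0.025. Members were higher in 12 cases and lower in 9. The groups did not overlap for 13 members (61.9%, against 42.8% of all genes), and 11 had an unadjusted p under 0.05, which 32% of all genes had.

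**Figure D1:**
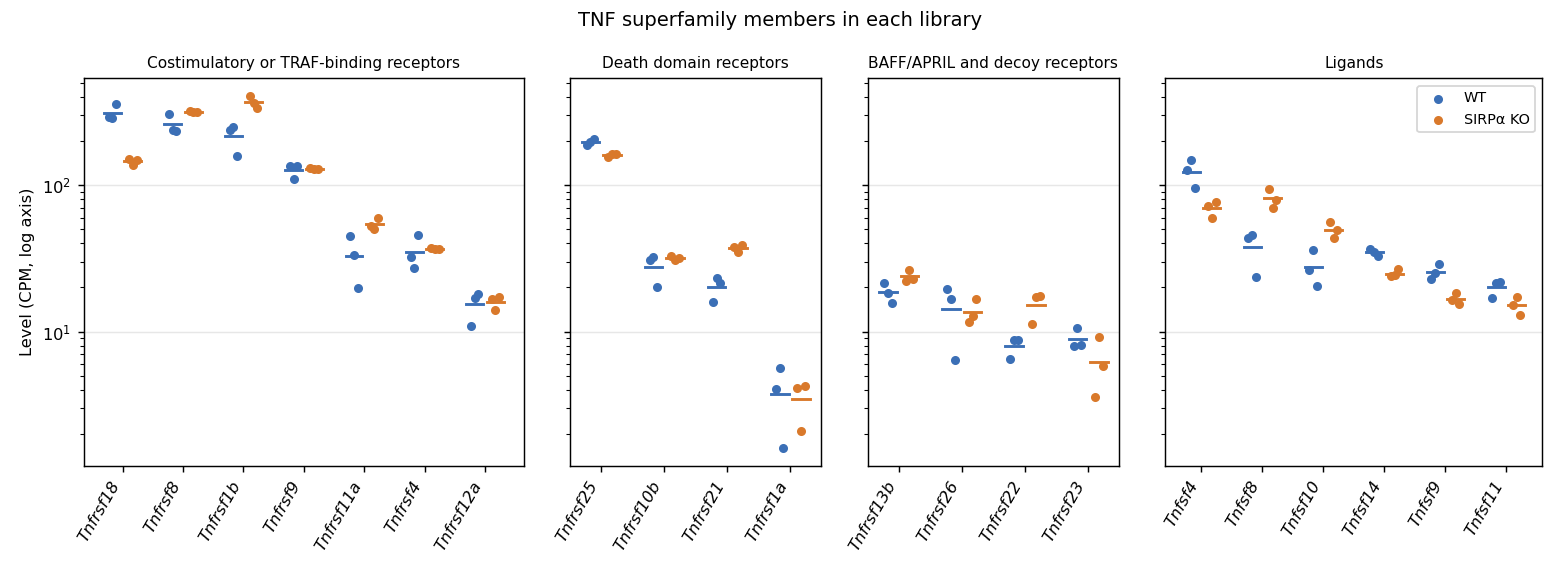
Level of the 21 tested members in each library (points, CPM on a log axis), arranged by role, with WT replicates 1 to 3 in blue, SIRPα KO replicates 1 to 3 in orange and the mean of each group as a bar. Tnfrsf18 lies at 289 to 359 CPM in WT against at 138 to 151 CPM in SIRPα KO, and Tnfrsf1b moves the other way without overlap.

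Among the receptors that bind TRAF adaptors, 7 of 9 were tested, 1 was higher, 1 was lower and 5 did not pass the threshold. Of all genes, 5.94% were higher and 5.81% lower. Tnfrsf18 encodes GITR, a costimulatory receptor of lymphocytes. It had 292, 289 and 359 CPM in WT replicates 1 to 3 and 151, 138 and 148 CPM in the SIRPα KO replicates. Every SIRPα KO library lay far below every WT library. The level was thus 2.15-fold lower in SIRPα KO, for a log2 fold change of -1.10 (standard error, SE, 0.12, edgeR adjusted p = 0.00717). Tnfrsf1b encodes TNFR2, the receptor for TNF and lymphotoxin α that lacks a death domain. It had 239, 251 and 159 CPM in WT against 406, 363 and 337 CPM in SIRPα KO. WT replicate 3 was the lowest of the 6 libraries, and all SIRPα KO libraries were above all WT libraries. The log2 fold change of Tnfrsf1b was 0.77 (SE 0.18, edgeR adjusted p = 0.0361), or 1.70-fold, and it was 0.60 without WT replicate 3 (adjusted p = 0.00773).

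The other receptors of this kind did not pass the threshold. Tnfrsf8, which encodes CD30, had 307, 239 and 236 CPM in WT against 319, 317 and 317 CPM in SIRPα KO, for a log2 fold change of 0.29 (edgeR adjusted p = 0.163). Its SIRPα KO values were nearly identical and just above the highest WT library. Tnfrsf9, an inducible costimulatory receptor also known as CD137, had 135, 111 and 136 CPM in WT against 130.1, 129 and 129.8 CPM in SIRPα KO. Tnfrsf4, which encodes OX40, had 32.3, 27.2 and 46.0 CPM in WT against 37.3, 36.6 and 36.5 CPM in SIRPα KO. For both genes the SIRPα KO libraries fell inside the WT range, with log2 fold changes of 0.024 (95% interval -0.26 to 0.31) and 0.066 (-0.42 to 0.55). With upper quartile factors, which move the median of all genes to -0.125, those of Tnfrsf9, Tnfrsf4 and Tnfrsf12a were below 0. Tnfrsf11a, which encodes RANK, had 45.0, 33.6 and 20.0 CPM in WT against 52.3, 50.3 and 59.2 CPM in SIRPα KO. The groups did not overlap, and WT replicate 3 was again the lowest, with a log2 fold change of 0.71 (edgeR adjusted p = 0.122) that was 0.46 without that library. Tnfrsf12a, which encodes the TWEAK receptor Fn14, had 10.98, 16.9 and 18.01 CPM in WT against 16.7, 13.96 and 17.2 CPM in SIRPα KO, and the groups overlapped.

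All 4 death domain receptors were tested, and 1 was higher, where 5.94% of all genes were. Tnfrsf21 encodes DR6, a receptor with a cytoplasmic death domain. It had 15.9, 23.3 and 21.5 CPM in WT against 37.6, 35.1 and 39.1 CPM in SIRPα KO. Both groups were tight and well apart, with a log2 fold change of 0.88 (SE 0.19, edgeR adjusted p = 0.0291). Tnfrsf10b encodes the death receptor for TRAIL, and its 30.7, 32.2 and 20.2 CPM in WT against 32.8, 30.6 and 31.6 CPM in SIRPα KO overlapped. Its log2 fold change was 0.19 (95% interval -0.29 to 0.67, edgeR adjusted p = 0.549), and 0.016 without WT replicate 3, the lowest library. Tnfrsf25 encodes DR3, the receptor for TL1A, and had 189.5, 197 and 207 CPM in WT against 157, 163 and 163 CPM in SIRPα KO. The groups did not overlap, but the log2 fold change of -0.30 (edgeR adjusted p = 0.0913) did not pass the threshold. Tnfrsf1a, which encodes TNFR1, was the least abundant tested member per length, with 4.03, 5.62 and 1.59 CPM in WT against 4.09, 2.10 and 4.22 CPM in SIRPα KO, and its 95% interval of -1.32 to 1.10 on the log2 scale was the widest among these receptors.

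Of the receptors for BAFF and APRIL, Tnfrsf13b, which encodes TACI, had 21.6, 18.3 and 15.8 CPM in WT against 22.3, 26.3 and 23.0 CPM in SIRPα KO. The groups did not overlap, and the log2 fold change was 0.37 (edgeR adjusted p = 0.221). Of the decoy receptors, 3 of 4 were tested and 0 passed the threshold in edgeR, whereas 1 did in DESeq2 and 1 had an unadjusted p under 0.05 in edgeR, Tnfrsf22 in both cases. Of all genes, 11.7% passed in edgeR and 24.4% in DESeq2, and 32% had an unadjusted p under 0.05 in edgeR. Tnfrsf22 and Tnfrsf23, adjacent mouse decoy receptors for TRAIL on chromosome 7, had fractional counts whose sum was a whole number within 0.01 of a read, so reads were split between them and their single values are uncertain. Tnfrsf22 had 6.50, 8.82 and 8.74 CPM in WT against 11.2, 17.1 and 17.4 CPM in SIRPα KO, with a log2 fold change of 0.93 (edgeR adjusted p = 0.0553). Tnfrsf23 had 7.94, 10.6 and 8.14 CPM in WT against 3.58, 9.18 and 5.83 CPM in SIRPα KO, with a log2 fold change of -0.52 (edgeR adjusted p = 0.364). The sum of both genes was 16.9 ± 2.49 CPM in WT against 21.5 ± 5.94 CPM in SIRPα KO (mean ± SD, n = 3 each, exact two-sided permutation p = 0.3). Tnfrsf26, their neighbour, had 19.7, 16.6 and 6.42 CPM in WT against 11.6, 12.7 and 16.7 CPM in SIRPα KO, and the groups overlapped.

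Among the ligands, 6 of 11 were tested, 1 was higher, 1 was lower and 4 did not pass the threshold. The 2 called ligands are 33.3% of those tested, against 11.7% of all genes. The groups overlapped only for Tnfsf11, so 83.3% of the tested ligands were separate, against 42.8% of all genes. Tnfsf8 encodes CD30L, the ligand of CD30. It had 43.9, 45.9 and 23.7 CPM in WT against 94.2, 70.2 and 79.3 CPM in SIRPα KO. All SIRPα KO libraries were above the WT libraries, and WT replicate 3 was lowest. The log2 fold change of Tnfsf8 was 1.10 (SE 0.26, edgeR adjusted p = 0.0358), and 0.86 without WT replicate 3 (adjusted p = 0.0106). Tnfsf4, which encodes OX40L, had 127, 147 and 96.3 CPM in WT against 72.4, 59.9 and 76.2 CPM in SIRPα KO. Each SIRPα KO library was below each WT library, with a log2 fold change of -0.83 (SE 0.18, edgeR adjusted p = 0.0304).

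The remaining ligands did not pass the threshold. Tnfsf10, which encodes TRAIL, had 26.5, 36.3 and 20.5 CPM in WT against 55.9, 43.6 and 49.7 CPM in SIRPα KO, for a log2 fold change of 0.84 (edgeR adjusted p = 0.0520). Tnfsf9, the ligand of CD137, had 22.9, 25.0 and 28.9 CPM in WT against 16.4, 18.4 and 15.4 CPM in SIRPα KO, for a log2 fold change of -0.61 (edgeR adjusted p = 0.0649). Tnfsf14, which encodes LIGHT, had 36.9, 35.0 and 33.0 CPM in WT against 23.8, 24.3 and 26.5 CPM in SIRPα KO, for a log2 fold change of -0.49 (edgeR adjusted p = 0.0713). The groups of these 3 genes were separate, with SIRPα KO above for Tnfsf10 and WT above for Tnfsf9 and Tnfsf14. Tnfsf11, which encodes RANKL, had 16.96, 21.4 and 21.7 CPM in WT against 15.2, 17.3 and 12.9 CPM in SIRPα KO, with a log2 fold change of -0.40 (edgeR adjusted p = 0.211).

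The 9 members that were not tested were Tnfrsf11b, Tnfrsf13c, Tnfrsf14, Tnfrsf19, Tnfsf12, Tnfsf13, Tnfsf13b, Tnfsf15 and Tnfsfm13, with at most 43 reads in a library. Tnfsf12, which encodes TWEAK, was the most abundant of them, with 31, 5 and 43 reads in WT against 8, 10 and 10 reads in SIRPα KO. Tnfsfm13 overlaps both Tnfsf12 and Tnfsf13 on chromosome 11. The counts of these genes were fractional, whereas their sum was a whole number within 0.01 of a read. Reads were thus split among them, and their single values, those of Tnfsf12 included, are uncertain. The sum was 45, 5 and 64 reads in WT against 21, 20 and 22 reads in SIRPα KO. Tnfsf15, which encodes TL1A, had 0 reads in every WT library and 2, 20 and 0 reads in SIRPα KO, and Tnfrsf14, which encodes HVEM, had 3, 1 and 2 reads in WT against 12, 0 and 6 in SIRPα KO. Differences in these genes were not detectable at this depth.

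**Figure D2:**
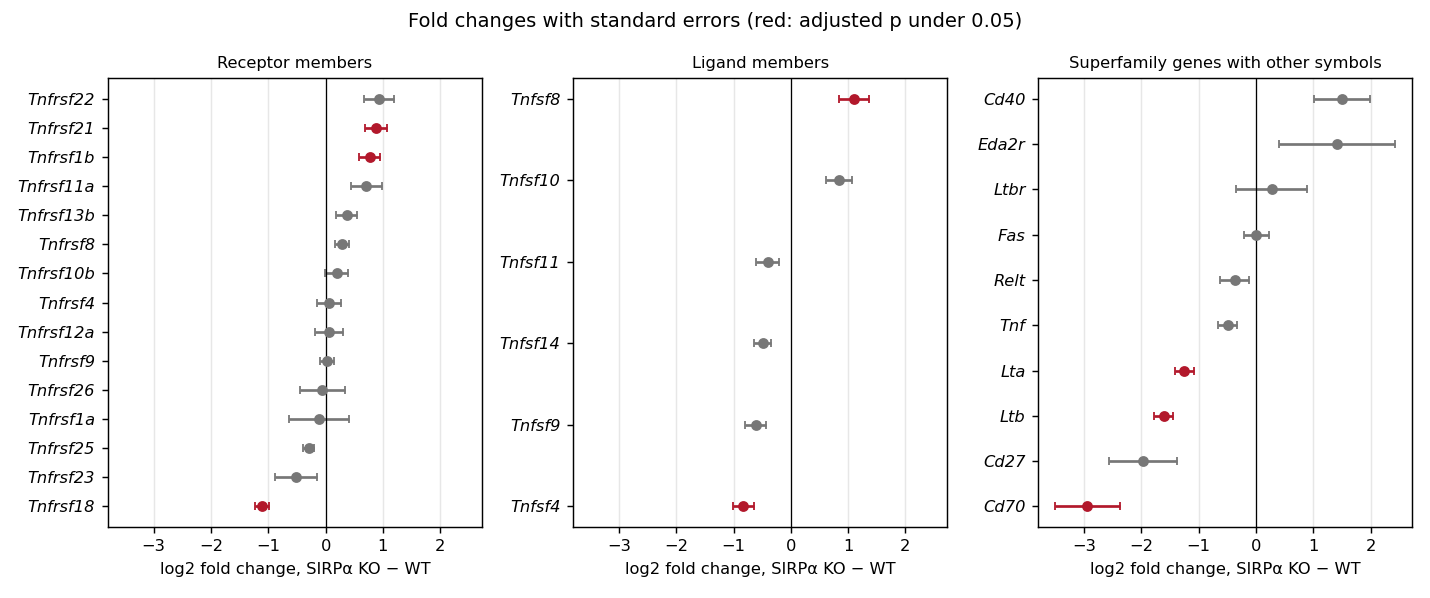
Log2 fold change of SIRPα KO over WT (points) with its SE (bars) for the 15 tested receptors, the 6 tested ligands and the 10 tested superfamily genes with other symbols. Points in red had an adjusted p under 0.05 in edgeR: Tnfrsf1b, Tnfrsf21 and Tnfsf8 to the right, and Tnfrsf18, Tnfsf4, Lta, Ltb and Cd70 to the left.

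The calls among members depended on which libraries were used. Without any one SIRPα KO replicate, 0 members passed the threshold in edgeR (8 to 11 had an unadjusted p under 0.05), and between 0.112% and 0.12% of all genes passed it. The adjusted p was then 0.0575 to 0.0785 for Tnfrsf18, 0.109 to 0.159 for Tnfrsf1b, 0.118 to 0.133 for Tnfrsf21, 0.107 to 0.150 for Tnfsf4 and 0.117 to 0.157 for Tnfsf8, while all of their log2 fold changes kept their sign. Without WT replicate 1, the calls of Tnfrsf1b (0.0543), Tnfsf4 (0.0613) and Tnfsf8 (0.0545) were lost, where 7.89% of all genes were called. Without WT replicate 2 Tnfsf10 was called as well, with 16.3% of all genes. Without WT replicate 3, 9 members were called, with Tnfrsf22, Tnfrsf25, Tnfsf10 and Tnfsf14 beside the 5, as were 18.4% of all genes. With libraries of one code summed, 0 members were called (8 had an unadjusted p under 0.05), as were 0.0686% of all genes. DESeq2 called 10 members, the 5 above with Tnfrsf22, Tnfrsf25, Tnfsf9, Tnfsf10 and Tnfsf14, and 24.4% of all genes. WT replicate 3 was the lowest of the 6 libraries for 9 of the 21 members (42.9%) and for 33.4% of all genes tested.

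Superfamily genes whose symbols do not follow the rule gave further ligands and receptors. Of 15 such genes, 12 were in the table, 10 were tested, and 0 were higher and 3 lower in SIRPα KO in edgeR, or 30.0% where 11.7% of all genes were called. At an unadjusted p under 0.05 there were 6 of the 10, against 32% of all genes, and DESeq2 called 1 higher and 5 lower, against 24.4% of all genes in either direction. Lta, which encodes lymphotoxin α, a ligand of TNFR1 and TNFR2, had 276, 363 and 423 CPM in WT against 147, 156 and 144 CPM in SIRPα KO, for a log2 fold change of -1.25 (edgeR adjusted p = 0.0101). Ltb, whose product forms heterotrimers with lymphotoxin α, had 72.9, 66.0 and 70.2 CPM in WT against 18.7, 23.1 and 26.6 CPM in SIRPα KO, for a log2 fold change of -1.61 (edgeR adjusted p = 0.00586). The SIRPα KO libraries were far below the WT libraries for both genes. Cd70, the ligand of CD27, was scarce, with 69, 46 and 38 reads in WT against 4, 6 and 11 reads in SIRPα KO, and its log2 fold change was -2.94 (edgeR adjusted p = 0.0220). Tnf had 38.6, 41.3 and 50.4 CPM in WT against 32.3, 30.0 and 30.1 CPM in SIRPα KO, for a log2 fold change of -0.49 (edgeR adjusted p = 0.0822). The groups did not overlap for Tnf, so that its level and that of Lta were below WT in the same libraries in which Tnfrsf1b, their receptor, was above it. The longest transcripts of Tnf and Lta have 1639 and 1383 bases, and that of Tnfrsf1b has 3818. With the length and GC correction described below, Tnf was at -0.22 (edgeR adjusted p = 0.307). Lta was then at -0.81 (0.0123) and Tnfrsf1b at 0.70 (0.0221). Without a SIRPα KO replicate the adjusted p was 0.0712 to 0.0871 for Lta, 0.0460 to 0.0731 for Ltb, which passed without replicate 3 alone, and 0.0806 to 0.124 for Cd70, which also missed the threshold without WT replicate 1 (0.0509). Fas, Relt and Ltbr, the next by level, had log2 fold changes of 0.0060, -0.37 and 0.27, and that of Fas was -0.10 with upper quartile factors.

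All 22 adaptors and regulators of TNF receptor signaling were tested, and 1 was higher and 1 lower. Cyld, a deubiquitinase that limits NF-κB signaling, had 80.04, 87.1 and 47.4 CPM in WT against 150, 134 and 131 CPM in SIRPα KO, for a log2 fold change of 0.95 (edgeR adjusted p = 0.0353) that was 0.42 once transcript length and GC content were corrected for, as described below (adjusted p = 0.0667). Sharpin, a subunit of the linear ubiquitin ligase complex, had 63.1, 56.2 and 55.9 CPM in WT against 42.9, 39.2 and 41.4 CPM in SIRPα KO, for a log2 fold change of -0.50 (edgeR adjusted p = 0.0497), and -0.23 after the correction (adjusted p = 0.304). Both calls were lost without any one SIRPα KO replicate (adjusted p 0.113 to 0.152 for Cyld and 0.169 to 0.213 for Sharpin), that of Cyld also without WT replicate 1 (0.0556) and that of Sharpin without WT replicate 1 or 2 (up to 0.0970). The 2 called genes are 9.09% of the list, against 11.7% of all genes. The most abundant of the others, Casp8, Traf1 and Rbck1, had log2 fold changes of 0.017, -0.11 and 0.068, with overlapping groups.

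Markers of other lymphocytes moved with the genes that were lower, although the sort left out cells with surface CD3ε, CD4, TCRβ, B220, CD335, CD11b or CD11c, among others. Those of B and plasma cells summed to between 224 and 495 CPM in WT against between 23.2 and 87.3 CPM in SIRPα KO. Of these, 5 of 7 were lower in edgeR, where 5.81% of all genes were lower and 5.94% higher. T cell markers summed to between 205 and 274 CPM in WT against between 123 and 132 CPM in SIRPα KO, with 3 of 4 tested lower and Cd4 at 0 in WT, and those of NK cells and ILC1 to between 13.9 and 25.3 CPM and between 1.73 and 3.73 CPM, with 3 of 5 lower. With the same correction, the log2 fold change of Cd3g was -2.65 (edgeR adjusted p = 0.00194). Those of Trbc1 and Trbc2, which made up most of the T cell sum, were -0.42 (0.0952) and -0.085 (0.648). Cd3e did not pass the threshold with or without it. Cd3e, Cd3d and Trac were scarce in both groups, with means of 1.36, 0.46 and 0.87 CPM in WT against 1.09, 0.26 and 0.20 CPM in SIRPα KO. Of the NK cell and ILC1 markers, Klrb1c (0.0302) and Eomes (0.0293) were still called and Gzma (0.0552) was not. Myeloid markers summed to between 45.5 and 137 CPM in WT against between 86.9 and 131 CPM in SIRPα KO, with 1 of 8 tested higher and C1qa, C1qb, C1qc and Fcgr1 at 0 in WT. The part of such cells in the values of Tnfrsf18, Tnfsf4, Lta, Ltb and Cd70 was not tested, and in bulk samples fewer cells of a type and less RNA per cell cannot be told apart.

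Levels of different genes were compared as CPM per kilobase of the longest transcript. In WT, Tnfrsf18 was the most abundant tested member at 263 ± 33.3 CPM per kilobase (SD, n = 3), followed by Tnfrsf25 at 119 ± 5.37. Tnfrsf8 (76.3 ± 11.7), Tnfsf4 (67.0 ± 13.96), Tnfrsf9 (60.2 ± 6.77) and Tnfrsf1b (56.7 ± 13.2) came next, and neighbours among these 4 did not differ beyond their spread. In SIRPα KO, Tnfrsf18 was still first at 122 ± 5.56 CPM per kilobase, but Tnfrsf1b, at place 6 in WT, was level with Tnfrsf25 (97.0 ± 2.20) and Tnfrsf8 (93.1 ± 0.304) at 96.6 ± 9.23. Tnfsf4, at place 4 in WT, was at place 6 with 37.7 ± 4.63 CPM per kilobase. At the low end, Tnfrsf23 had 2.65 ± 0.441 CPM per kilobase in WT, and 6.02 when its longest coding transcript was used, so its place depends on the transcript model.

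Fold changes followed transcript length in these libraries, with a median log2 fold change of -0.55 in the tenth of expressed genes with the shortest transcripts and 0.47 in the tenth with the longest. The called members lay along this trend in part, since Tnfrsf18 has a longest transcript of 1189 bases and Tnfsf8, Tnfrsf1b and Tnfrsf21 have transcripts of 3807, 3818 and 3627 bases. After a correction for length and GC content, 5 members passed the threshold, against 8.91% of all genes, and 4 of these were called without it. The log2 fold change of Tnfrsf18 shrank to -0.60 (edgeR adjusted p = 0.01002), that of Tnfsf8 to 0.79 (0.0414) and that of Tnfrsf1b to 0.70 (0.0221), and that of Tnfsf4 was -0.84 (0.0336). Tnfrsf21 was at 0.78 and no longer passed (edgeR adjusted p = 0.0537). Tnfrsf4, with a transcript of 1090 bases, moved from 0.066 to 0.60 and passed the threshold (edgeR adjusted p = 0.0360), and Tnfrsf12a moved from 0.061 to 0.69 (0.0965). Tnfrsf25 changed sign to 0.14. Tnfsf9 (-0.23), Tnfsf14 (-0.20) and Tnfsf10 (0.42) were closer to 0 than without the correction. The log2 fold changes of Lta, Ltb and Cd70 were -0.81, -1.07 and -2.35, each still with an adjusted p under 0.05. That of Tnf was -0.22 (edgeR adjusted p = 0.307).

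**Figure D3:**
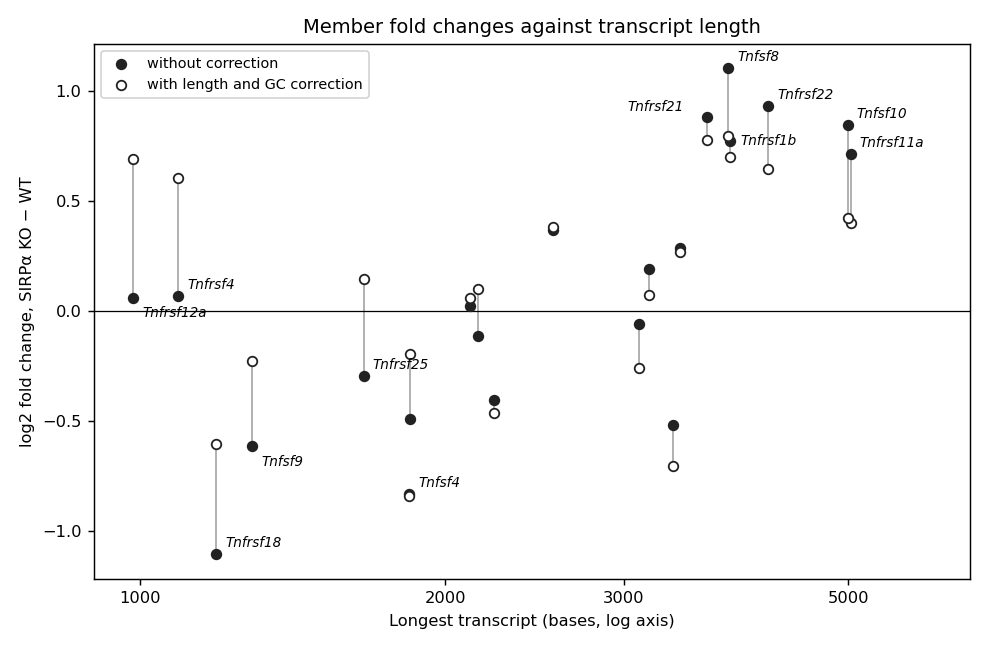
Log2 fold change of SIRPα KO over WT for the 21 tested members against the length of the longest transcript in bases (log axis), without (filled) and with (open) the correction for length and GC content, joined by a line. The shortest members, Tnfrsf12a, Tnfrsf4, Tnfrsf18 and Tnfsf9, moved upward, and Tnfsf10, Tnfrsf11a and Tnfsf8 moved downward.

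Several superfamily genes lie next to each other in mm10, and 9 members are on chromosome 4. Tnfrsf4 (chr4:156013843-156016612) and Tnfrsf18 (chr4:156026164-156028895), both on the plus strand, are 9551 bases apart and have transcripts of similar length. The log2 ratio of Tnfrsf18 to Tnfrsf4 reads within a library was 3.18, 3.41 and 2.96 in WT and 2.01, 1.92 and 2.02 in SIRPα KO, a difference of -1.20. The ratio is free of library scaling though not of differences in length, and all SIRPα KO values were below all WT values. Tnfrsf1b and Tnfrsf8 (20266 bases apart on the minus strand) had a log2 ratio of -0.36, 0.074 and -0.57 in WT and 0.35, 0.20 and 0.087 in SIRPα KO, a difference of 0.50 with the nearest values close together. Tnfsf14 and Tnfsf9, which flank Cd70 on chromosome 17, did not separate the groups, with a difference of 0.12 that was -0.013 without WT replicate 3. Ltb, Tnf and Lta, which lie within a few kilobases of each other on the same chromosome, were all below WT, with log2 fold changes of -1.61, -0.49 and -1.25. With the length and GC correction these were -1.07, -0.22 and -0.81, and that of Tnf did not pass the threshold with or without it.

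The same ratio was taken for ligands over their receptors, where it shows how the transcripts of a pair shifted relative to each other in the cells. Tnfsf4 over Tnfrsf4 was 1.97, 2.44 and 1.07 in WT and 0.96, 0.71 and 1.06 in SIRPα KO, and WT replicate 3 was nearly equal to the highest SIRPα KO library. Tnfsf8 over Tnfrsf8 was -2.83 ± 0.47 in WT and -1.98 ± 0.21 in SIRPα KO (mean ± SD, n = 3), and Tnfsf10 over Tnfrsf10b was -0.0074 ± 0.19 and 0.65 ± 0.13. In both pairs the ligand was higher relative to its receptor in SIRPα KO, and in the other ligand and receptor pairs it was lower. Tnfsf9 over Tnfrsf9 was -2.31 ± 0.22 in WT and -2.95 ± 0.14 in SIRPα KO, and Tnfsf11 over Tnfrsf11a was -0.65 ± 0.76 and -1.84 ± 0.33. Most of the ligands differ from their receptors in transcript length. With length and GC content corrected for, the difference between the groups was -1.44 for Tnfsf4 over Tnfrsf4, 0.53 for Tnfsf8 over Tnfrsf8, 0.35 for Tnfsf10 over Tnfrsf10b, -0.29 for Tnfsf9 over Tnfrsf9 and -0.86 for Tnfsf11 over Tnfrsf11a, where it was -0.92, 0.85, 0.65, -0.64 and -1.19 without the correction. For Tnfrsf18 over Tnfrsf4 it was -1.21, and it kept its sign in all 8 pairs. For 7 of the 8 pairs the groups did not overlap, which gives the smallest exact two-sided permutation p that 3 libraries against 3 allow, 0.1 (0.114 after Benjamini-Hochberg adjustment over the 8 pairs), and for Tnfsf14 over Tnfsf9 it was 0.5. This test cannot go below 0.1 with 3 libraries a group, and the 3 neighbouring pairs were chosen after their values were seen. How many pairs of other genes separate the groups in this way was not determined. For single genes the groups did not overlap in 42.8% of all genes tested, so the count of separate pairs is not specific to them. Ratios of Tnf or Lta to their receptors were not taken.

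**Figure D4:**
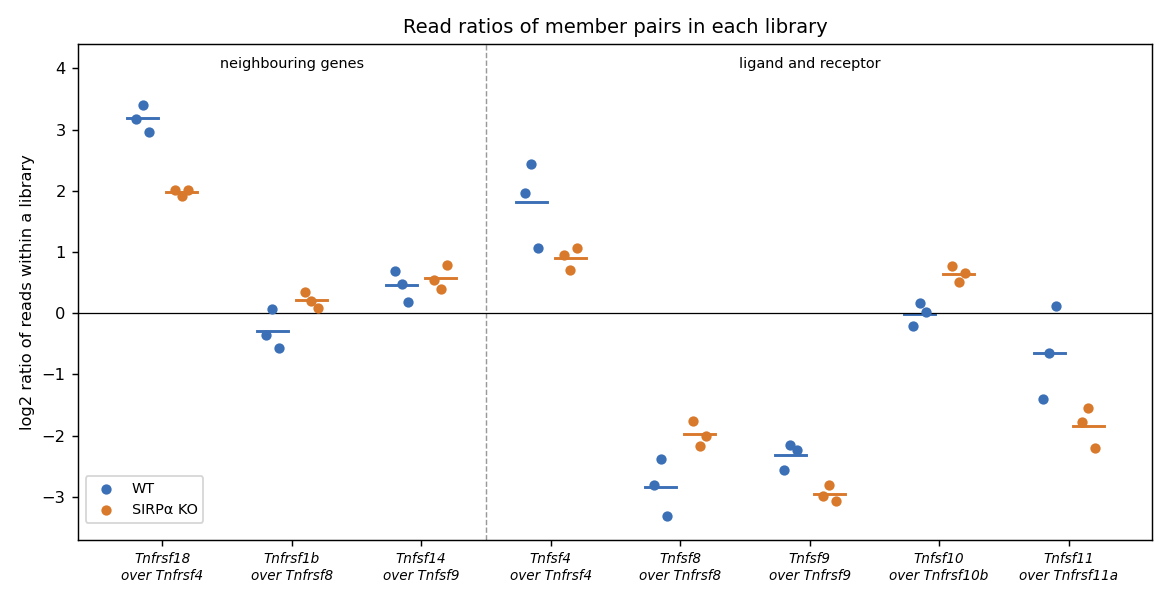
Log2 ratio of reads of 2 members within a library for 3 neighbouring pairs (left of the dashed line) and 5 ligand and receptor pairs, with WT replicates 1 to 3 in blue, SIRPα KO replicates 1 to 3 in orange and group means as bars. The groups are widest apart relative to their spread for Tnfrsf18 over Tnfrsf4, at 2.96 to 3.41 in WT and 1.92 to 2.02 in SIRPα KO.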

How the data were processed

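The data are bulk RNAseq of 6 libraries, 3 of each genotype. Reads were handled in Partek by the authors, who aligned them with STAR to mm10 with GENCODE M21, and deposited estimated counts per gene. The version of STAR differs between the sources. The handling of strand and of overlapping or repeated genes is not stated. Counts were whole numbers for 57.2% to 61.2% of genes in a library. Besides the members said above to split reads, Tnfsf9, Tnfrsf18, Tnfrsf8 and Tnfrsf25 had fractional counts. These were up to 0.388, 0.3, 0.3 and 0.05 of a read from a whole number. Whether these genes share reads with others was not tested. The record of columns names 119 genes, and the other 17712 hold the same unit. No gene has a total under 10. Totals were 13980499 to 19051507 reads, and few reads limit the precision of scarce members.

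Counts were rounded and filtered with filterByExpr (minimum count 10, minimum total 15), scaled by TMM and compared by edgeR's quasi-likelihood test on genotype (edgeR 4.0.16, R 4.3.3), with Benjamini-Hochberg adjustment over 13623 genes and a threshold of 0.05. The standard error was derived from the F statistic. CPM values were computed on TMM-scaled library sizes. Symbols were matched to GENCODE M21 directly (17400), through synonyms (214) or not at all (217). The length correction fitted splines with 5 degrees of freedom for length and GC content to each library over 8951 genes outside the lists, at average log2 CPM 3 or above, and entered them as offsets. Alternatives were DESeq2 1.42.0, other scalings and filters, a replicate block, libraries of one code summed and each library left out. Procedures were tested on simulated data. Permutation tests used scipy 1.17.1 and figures matplotlib 3.10.9.

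Every member is named. From the lists of other superfamily genes and adaptors, the text names called genes, partners of members with at least 1 mean CPM and up to 3 others by level. Members and lists were chosen with earlier results of these data known.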

Additional observations from a re-analysis of the deposited data

How the results depend on the processing

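Across 33 genes and 14 alternatives, 364 of 462 log2 fold changes kept their direction and their side of the threshold, 54 lost the call, 15 gained it and 29, in 10 genes, changed sign. None of the 5 called members changed sign in an alternative. Below the threshold, signs changed with upper quartile factors for Tnfrsf12a (-0.048), Tnfrsf4 (-0.048), Tnfrsf9 (-0.080), Fas (-0.10), Casp8 (-0.082) and Rbck1 (-0.034). They changed with the length and GC correction for Tnfrsf1a (0.099), Tnfrsf25 (0.14) and Casp8 (-0.076), with libraries of one code summed for Tnfrsf1a (0.17), Tnfrsf26 (0.084) and Tnfrsf4 (-0.029), and for Fas with the filter of 1 CPM in 3 libraries (-0.011). With each library left out, the log2 fold change ran from -0.13 to 0.20 for Tnfrsf12a, -0.47 to 0.30 for Tnfrsf1a, -0.40 to 0.25 for Tnfrsf26, -0.091 to 0.32 for Tnfrsf4, -0.068 to 0.080 for Tnfrsf9, -0.14 to 0.15 for Fas, -0.18 to 0.69 for Ltbr and -0.018 to 0.059 for Casp8. The difference in the ratio of Tnfsf14 to Tnfsf9 ran from -0.013 to 0.24.

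Members called higher numbered 5 with DESeq2 and 0 with one code summed, and 0 to 5 with a library left out. Members called lower numbered 5 with DESeq2, 0 with one code summed, and 0 to 4 with a library left out. Other superfamily genes numbered 1 higher and 5 lower with DESeq2, 0 lower with one code summed, and 0 to 3 lower with a library left out. Adaptors called higher numbered 5 with DESeq2, 2 with RLE size factors, 2 with the filter of 1 CPM in 3 libraries, 0 with one code summed, and 0 to 4 with a library left out. Adaptors called lower numbered 0 with RLE size factors, without a filter, with one code summed and with the length and GC correction, and 0 to 2 with a library left out. In either direction, 24.4% of all genes were called with DESeq2, 11.8% with RLE size factors and 13.7% with the filter of 1 CPM in 3 libraries. The share was 6.46% without a filter, 8.91% with the length and GC correction and 0.0686% with one code summed. It ran from 0.112% to 18.4% with a library left out. With the length and GC correction, the difference in the log2 ratio was -0.29 for Tnfsf9 over Tnfrsf9 and 0.35 for Tnfsf10 over Tnfrsf10b. These alternatives for the lists beside the members and for the ratios were chosen after seeing the data. The WT level per kilobase of Tnfrsf23 was 6.02 with its coding transcript. The causes of these shifts were not tested.

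The deviations of same-numbered libraries from their group means correlated at -0.042, 0.052 and 0.0075. With so few libraries, some of which share a code, these values cannot show whether replicate numbers paired the libraries. With a replicate block, 3 members were called (Tnfrsf18, Tnfrsf1b and Tnfsf8), so 1 was lower, 0 adaptors were lower, and Tnfrsf26 was at 0.046. Of all genes, 8.21% were called with this block.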
